A study of Mus musculus with 24 samples.

Results

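The homozygous yolk sacs of a Setd2 null mouse line were set directly against those of a Setd2 catalytic dead (CD) line, both collected on embryonic day 9.5. These are 4 of the 24 messenger RNA libraries of the study, 2 per line, and they were taken by tissue, line and genotype from the labels, with no measured value used. The study made such libraries from whole embryos and from yolk sacs of both lines in 3 genotypes, wild type (WT), heterozygous (HE) and homozygous (HO), with 2 libraries per group and C57BL/6 given as the strain of all. The other 8 yolk sac libraries (null WT, null HE, CD WT and CD HE) are shown beside the homozygotes as a check on differences between the lines that do not need homozygosity. The alleles are known here by their names alone, a null allele and a catalytic dead one. Protein and histone methylation were not analysed here, and the sources used here do not give the edit made in each line, its founders, the litters or any pooling. Nothing in the labels says whether the 2 libraries of a group came from separate animals. A p-value here therefore rests on the spread between libraries of the same group, pooled over the 6 yolk sac groups and moderated across genes. It says no more than that.

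Setd2 is the methyltransferase that adds the third methyl group to lysine 36 of histone H3 along transcribed genes, a mark tied to elongating RNA polymerase and to the fidelity of splicing and of transcription starts. Setd2 is also a large protein with contacts to polymerase and to other substrates, so a null allele and a catalytic dead allele can in principle differ in what they take away. The yolk sac at this stage is a bilayer of visceral endoderm, which secretes and takes up lipoproteins and other serum proteins, and of mesoderm that forms vessels and the primitive red blood cells. Parietal endoderm, which lines the outer cavity and lays down a thick basement membrane, is a separate tissue that lies close to it.

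The yolk sac libraries held 16400137 to 22113787 counts. Levels are CPM (counts scaled to a common library size) after TMM scaling, and differences are null minus CD on the log2 scale with their standard error (SE), from 1 edgeR fit of all 12 yolk sac libraries. A gene is called when its edgeR adjusted p is under 0.05 over the 17755 genes tested. Defining markers of visceral endoderm summed to 25140 to 42778 CPM in every yolk sac library, with Apob at 11274 CPM or more in the homozygotes, and the 6 markers of the embryo proper summed to 0.918 CPM or less. By Xist and Y-linked transcripts, both CD HO libraries and the first null HO replicate were male, and null HO replicate 2 was female. The null HO libraries thus were not made from the same animal. CD HE replicate 2 held both Xist (897 CPM) and Y-linked transcripts (193 CPM summed). Other tissues left uneven traces. Prl3d1, a hormone gene of trophoblast giant cells, lay at 45.5 CPM in CD HO replicate 1 and 0.0598 in replicate 2. Igfbp1, a gene of the decidua that the visceral endoderm may also express, lay at 56.6 CPM in null HO replicate 1 and 16.8 in replicate 2. Csf1r, the macrophage receptor gene, lay at 27 CPM in CD HO replicate 2 and 8.6 in replicate 1 (23.5 and 15.8 in null HO). The other macrophage markers did not follow it in CD HO. Ptprc lay at 0.718 CPM in CD HO replicate 2 and 1.21 in replicate 1 (2.06 and 0.486 in null HO). C1qa and C1qb lay at 0 CPM in all homozygotes. In bulk tissue, fewer cells of a type and less RNA per cell cannot be told apart.

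Setd2 itself (chromosome 9, 110532597 to 110618633, mm10) was lower in the null homozygotes. The level was 75.6 and 78.9 CPM in null HO and 192 and 194 in CD HO, a difference of -1.32 (SE 0.09, edgeR adjusted p = 6.43e-05). The pairs lay far apart with almost no spread within either. The 6 CD libraries were all alike, from 170.2 to 194 CPM across WT, HE and HO. The null libraries were lower in every genotype. The null libraries labelled WT held 102 and 114 CPM, level with the null heterozygotes at 114 and 119.7, against 178 and 190.4 in CD WT. That difference between the groups labelled WT was called as well (-0.77, SE 0.09, edgeR adjusted p = 0.00895), so Setd2 went against the WT label in the null yolk sacs. In embryos, the null WT libraries held 232 and 229 CPM and the CD WT libraries 224 and 255. The sources used here do not say what the null allele removes, and reads outside the altered stretch may still be counted.

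Beyond Setd2 the homozygotes of the lines were alike at most genes, within the precision of 2 against 2 libraries. In all, 12 genes were called, 9 higher and 3 lower in null HO (0.0676% of the genes tested, with 0.0507% higher and 0.0169% lower), and 892 passed an unadjusted p of 0.05 (5.02%). The DESeq2 test called 55, with all 12 among them. The 9 higher genes were Rpl29, Gm10709, Epas1, Fabp3, Hs3st1, Lama1, Trpc5os, Cpne4 and Commd4, and the 3 lower genes were Setd2, Platr15 and Gm6166. Of the 12, 9 code for protein. The width of the uncertainty matters for the rest: the 95% interval of a gene's difference reached a median of 0.51 to either side, and 0.30 for genes above 10 CPM.

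**Figure D1:**
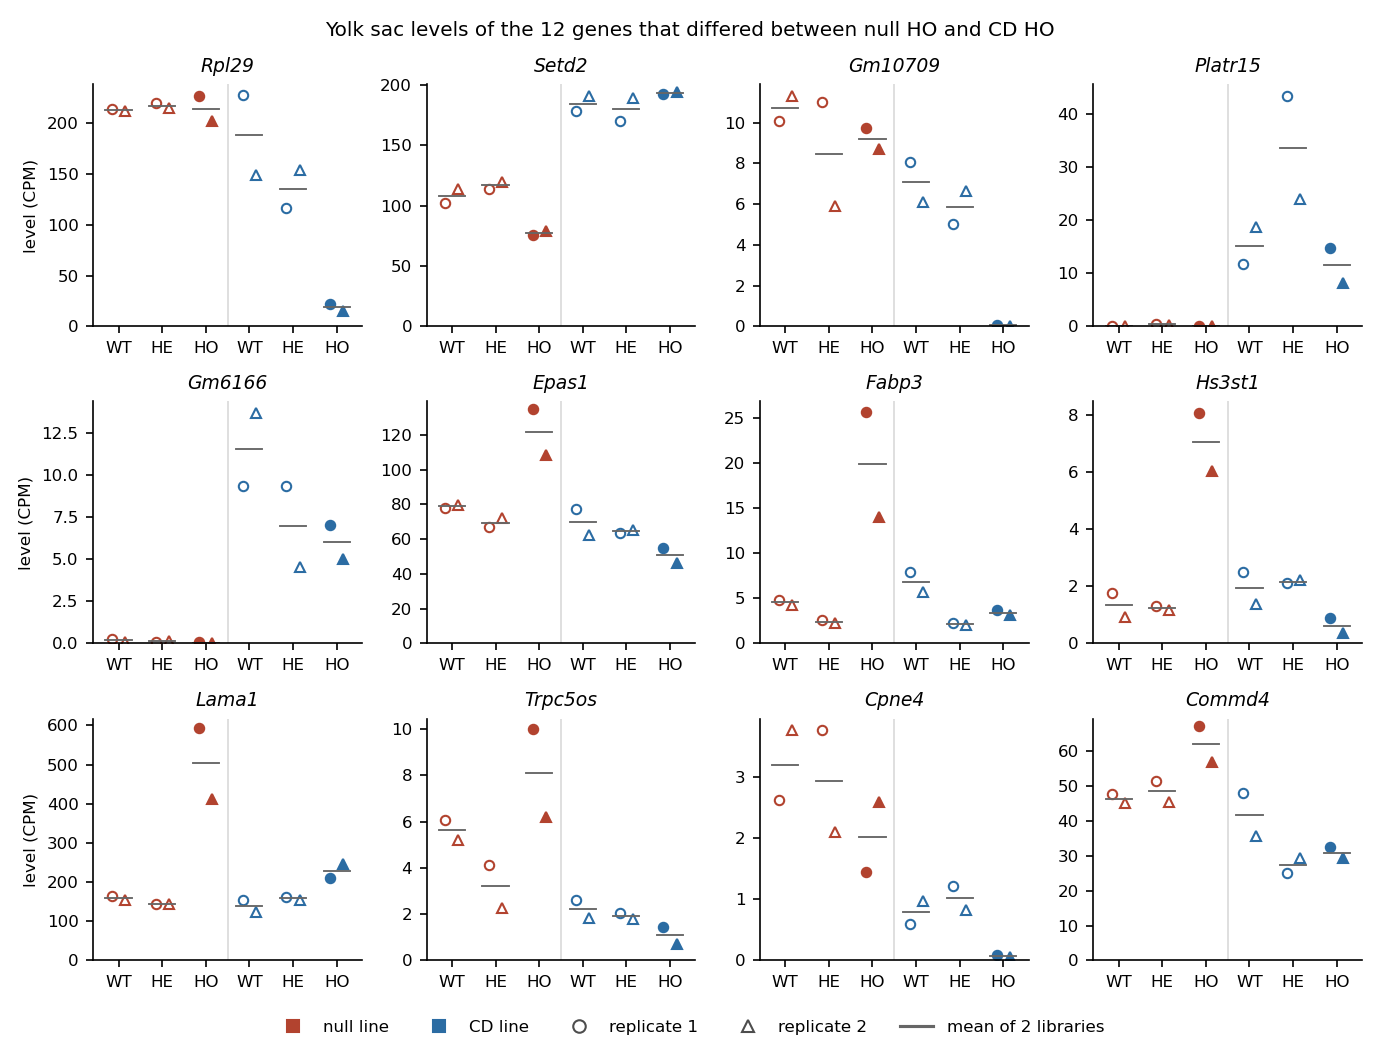
Level in CPM (linear axes from 0) of each of the 12 genes called between null HO and CD HO, in all 12 yolk sac libraries, with filled symbols for the homozygotes and a line at the mean of each group's 2 libraries. Platr15 and Gm6166 are near 0 in all 6 null libraries, Setd2 is lower in all 6, Rpl29 and Gm10709 are low in CD HO, Epas1, Fabp3 and Hs3st1 are highest in null HO, and Lama1 is highest in null HO with CD HO next.

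Rpl29, the gene of a protein of the large ribosomal subunit, had the smallest p. It lay at 226 and 201 CPM in null HO and at 21.7 and 15.6 CPM in CD HO, a difference of 3.51 (SE 0.22, edgeR adjusted p = 2.27e-05). The summed level was 11.3-fold higher in null HO, with an exact 95% interval of 10.5 to 12.2 that covers counting error only. The other null libraries held 212 to 219 CPM, so the null homozygotes stood with their own line. In the CD line the level stepped down, from 227 and 149 CPM in the libraries labelled WT to 116 and 154 in HE and then to the homozygotes. The CD library labelled WT replicate 2 lay within the range of the CD heterozygotes.

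Reads of Rpl29 are hard to place, because 27 other annotated genes match its coding sequence at 95% identity or more over at least 300 bases. Bases 199 to 463 of the coding sequence of Rpl29 (gene at chr9:106429454-106431568) are shown here with the same stretch of the copies Gm10709 (chr9:7751725-7752204) and Gm8210 (chr1:43189156-43189638), because the copies moved in opposite directions between the homozygotes although they differ from Rpl29 by only 4 and 3 bases. Both copies were picked out after their values were seen. All come from the GENCODE M21 transcripts of mm10, on the plus strand, and the bases at which a copy differs from Rpl29 are in capitals.

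Rpl29: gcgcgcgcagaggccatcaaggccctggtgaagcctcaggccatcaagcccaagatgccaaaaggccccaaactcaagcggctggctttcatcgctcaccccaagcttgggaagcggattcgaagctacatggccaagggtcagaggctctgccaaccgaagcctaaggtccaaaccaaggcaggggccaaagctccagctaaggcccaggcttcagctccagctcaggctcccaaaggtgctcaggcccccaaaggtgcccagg

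Gm10709: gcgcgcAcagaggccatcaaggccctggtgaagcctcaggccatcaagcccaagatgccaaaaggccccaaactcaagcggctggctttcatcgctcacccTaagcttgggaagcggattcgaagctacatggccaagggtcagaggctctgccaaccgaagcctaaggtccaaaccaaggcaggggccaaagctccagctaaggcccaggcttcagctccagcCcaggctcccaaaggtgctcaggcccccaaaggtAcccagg

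Gm8210: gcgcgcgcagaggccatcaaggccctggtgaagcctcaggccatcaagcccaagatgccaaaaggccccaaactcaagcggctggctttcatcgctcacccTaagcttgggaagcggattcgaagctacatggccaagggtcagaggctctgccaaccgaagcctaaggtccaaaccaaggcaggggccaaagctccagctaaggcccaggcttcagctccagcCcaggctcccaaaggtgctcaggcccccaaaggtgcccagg

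Counted from 1 at the A of the start codon, with the base of Rpl29 first, Gm10709 carries G205A, C300T, T423C and G457A, and Gm8210 carries C72A, which lies outside the stretch shown, C300T and T423C. Gm8210 is identical to the annotated sequence of Gm13841 on chromosome 5 over all 483 bases. The 2 differences C300T and T423C are shared by both copies shown.

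Gm10709 followed Rpl29. It lay at 9.72 and 8.69 CPM in null HO and at 0.093 and 0 CPM in CD HO (difference 7.31, SE 0.58, edgeR adjusted p = 0.000146). In reads this was 369 against 2, a ratio of 177 with an exact 95% counting interval of 48.6 to 1465. All other yolk sac libraries lay between 5.04 and 11.3 CPM, so CD HO was the group that stood apart. Gm8210 ran the opposite way, at 0.0935 and 0.162 CPM in null HO and 21.3 and 11.5 in CD HO. Its groups did not overlap, yet the difference of -6.96 (SE 1.42) was not called (edgeR adjusted p = 0.201), and the CD libraries labelled WT lay at 0.0997 CPM in replicate 1 and 9.49 in replicate 2. Fitted on the 4 homozygous libraries alone Gm8210 was called (edgeR adjusted p = 0.00484), as it was by DESeq2 (adjusted p = 0.0208). Gm13841 lay at 5.94 and 4.86 CPM in null HO and 11.7 and 11 in CD HO (-1.07, SE 0.26, edgeR adjusted p = 0.346).

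Summing Rpl29 with its 27 copies, a step added after the data were seen, merged the reads that had been counted for any of them. Any reads left uncounted because they match several copies would be missing from the sum too. The sum lay at 244 and 217 CPM in null HO and 56.2 and 39.1 in CD HO, and the difference was 2.27 (SE 0.19, edgeR adjusted p = 0.00033). It was smaller than for Rpl29 alone, and the groups remained fully apart. Between the groups labelled WT the sum differed by 0.15 (SE 0.18, edgeR adjusted p = 0.881) and between HE groups by 0.56 (SE 0.18, edgeR adjusted p = 0.741). The sources used here do not say how multiply mapped reads were counted, and whether that entered the difference was not tested.

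**Figure D2:**
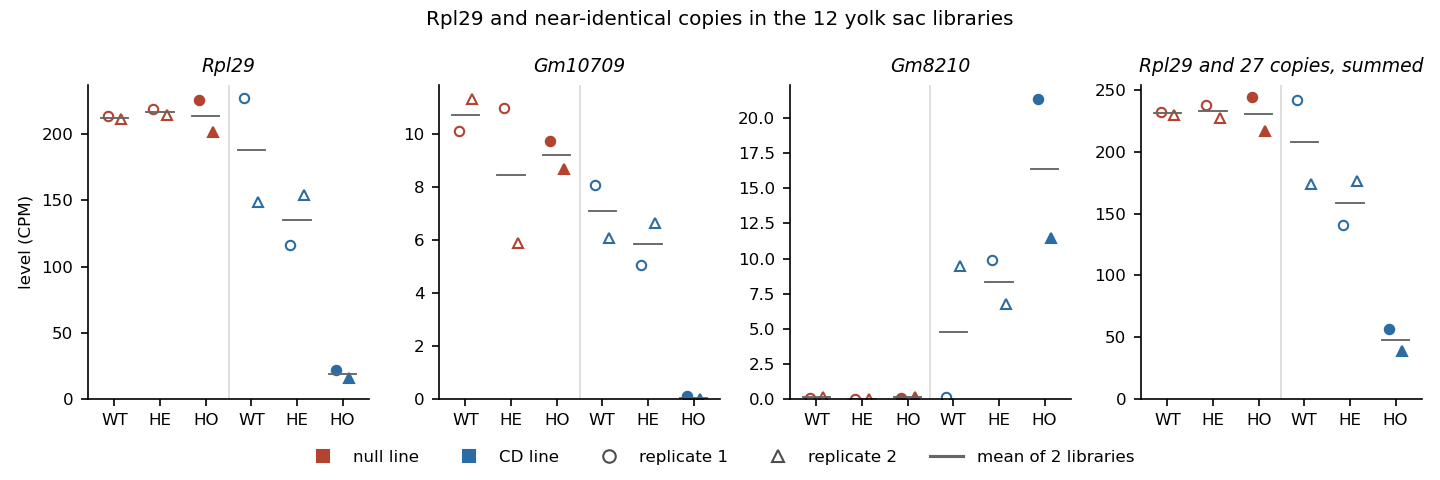
Levels in CPM (linear axes from 0) of Rpl29, of the copies Gm10709 and Gm8210, and of Rpl29 summed with all 27 copies, in the 12 yolk sac libraries, with a line at each group's mean. CD HO is the lowest group for Rpl29, Gm10709 and the sum and the highest for Gm8210, and CD WT replicate 2 sits with CD HE for Rpl29 and Gm8210.

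Both remaining lower genes separated the lines in every genotype. Platr15, a long noncoding RNA gene on chromosome 2, lay at 0.14 and 0 CPM in null HO and 14.8 and 8.19 in CD HO (-7.16, SE 0.69, edgeR adjusted p = 0.000936). In reads this was 3 against 456, a ratio of 159 with an exact counting interval of 54.0 to 772. All 6 null libraries stood at 0.54 CPM or less and all 6 CD libraries at 8.19 CPM or more. Its line difference was -7.14 (SE 0.65) between the groups labelled WT and -6.36 (SE 0.54) between HE groups, with edgeR adjusted p of 0.00108 and 0.000417. Gm6166, a processed pseudogene on chromosome 9 with 98.3% identity to the fatty acid-binding gene Fabp5, lay at 0.0935 and 0 CPM in null HO and 7.02 and 5.02 in CD HO (-6.75, SE 0.69, edgeR adjusted p = 0.00145). It was called between the groups labelled WT (-5.97) and between HE groups (-5.81) too. Fabp5 itself lay at 16.2 and 17.8 CPM in null HO and 24.1 and 15 in CD HO (-0.21, SE 0.27), with overlapping groups.

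Several other pseudogenes, picked out after their values were seen, were lower in null HO than in CD HO without being called in the fit of all 12 libraries. Gm11868, a chromosome 4 copy of the cytochrome reductase gene Cyb5r4, lay at 0.0935 and 0.108 CPM in null HO and 14.6 and 12.7 in CD HO (-7.00, SE 1.47, edgeR adjusted p = 0.201). Gm13456, a chromosome 2 copy of the elongation factor gene Eef1a1, lay at 17.1 and 15.8 against 55.1 and 56.8 CPM (-1.77, SE 0.31, edgeR adjusted p = 0.0805). Gm11942 lay at 1.59 and 0.81 against 16.7 and 8.85 CPM (-3.39, SE 0.68, edgeR adjusted p = 0.181). At each of these 3 the CD library labelled WT replicate 1 was near the null line (0, 11.2 and 1.05 CPM), while replicate 2 lay nearer the CD heterozygotes (9.01, 29.3 and 6.48 CPM). Fitted on the homozygous libraries alone, Gm11868 and Gm13456 were called (edgeR adjusted p = 0.000935 and 0.00484) and Gm11942 was not (0.0708), while DESeq2 called all 3. The parent genes had smaller differences. Cyb5r4 lay at 70.7 and 68.1 CPM in null HO and 48.8 and 42.9 in CD HO (0.60, SE 0.14, edgeR adjusted p = 0.307), and Eef1a1 between 6657 and 7466 CPM in the 4 libraries.

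Epas1, the oxygen-regulated transcription factor gene also known as HIF-2 alpha, was higher in null HO. Its level was 135 and 108 CPM in null HO and 55.0 and 46.5 in CD HO (1.26, SE 0.14, edgeR adjusted p = 0.0022), a 2.39-fold gap with a counting interval of 2.26 to 2.52. The other 8 yolk sac libraries lay between these groups, from 62.5 to 79.8 CPM, so null HO stood above and CD HO below. The lines differed by 0.17 (SE 0.13) between the groups labelled WT and 0.11 (SE 0.13) between HE groups, neither called. Epas1 was the 1 called gene of 40 tested on a list for hypoxia and glycolysis, whose median difference was 0.05. Within it, 4 members passed an unadjusted p of 0.05 upward and 0 downward, against 2.52% upward and 2.5% downward over all genes. Hif1a lay at 235 and 209.8 CPM in null HO and 217 and 215 in CD HO, and the vessel growth factor gene Vegfa at 111.3 and 122 against 131 and 101, with overlapping values in both. The glucose transporter gene Slc2a1 lay at 1451 and 1491 CPM against 1200.4 and 1281 (0.25, SE 0.10, edgeR adjusted p = 0.952).

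Lama1, the alpha chain of the laminin that builds early basement membranes, was higher in null HO. It lay at 594 and 412 CPM in null HO and 209.7 and 246 in CD HO (1.14, SE 0.16, edgeR adjusted p = 0.0168), a 2.26-fold gap. Every homozygous library of both lines stood above the other 8, which lay between 124 and 164 CPM, and the null homozygotes stood highest. The call depended on single libraries: leaving out null HO replicate 1 gave a difference of 0.86 with an edgeR adjusted p of 0.134. Leaving out CD HO replicate 1 gave 0.0758 and CD HO replicate 2 gave 0.065. The p was 0.204 when the 4 homozygous libraries were fitted alone.

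Other markers of parietal endoderm leaned the same way, although only Lama1 was called. Of 20 listed markers, all tested, 14 passed an unadjusted p of 0.05 upward and 0 downward, beside 2.52% and 2.5% of all genes. In 14 the null HO libraries lay wholly above the CD HO libraries, where 15.2% of all genes did. The median difference was 0.53, beside -0.01 over all genes tested. The count at unadjusted p was 9 of 20 without null HO replicate 1 (median 0.41, all genes 1.72%) and 11 without CD HO replicate 1 (all genes 4.3%), and it stayed at 14 without either other homozygous library. Between the groups labelled WT it was 2 (3.42% of all genes), and between HE groups 1 (2.92%). In the test of the difference of homozygous changes, described below, 5 of the 20 passed upward and 0 downward (median 0.29), with 0 called. Of all 17755 genes, 258 passed upward there. With HE in place of WT as the reference, 10 of the 20 passed upward (median 0.49). The list was compiled with earlier results of these data known and shares 7 genes with the basement membrane list, so its count is a description. Markers of trophoblast and decidua, the other tissues beside the yolk sac, gave 4 of 18 upward and 0 downward at the unadjusted threshold with 0 called (median -0.06). The 4 were Igfbp1 (2.10, edgeR adjusted p = 0.638), Bmp2 (1.26, 0.638), Cryab (0.69, 0.657) and Peg10 (0.30, 0.989), and their part in the result was not tested.

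The laminin partners of Lama1 showed this most evenly. These members were singled out after their values were seen. Lamc1 lay at 756 and 608 CPM in null HO and 406 and 442 in CD HO (0.69, SE 0.12, edgeR adjusted p = 0.0732), and Lamb1 at 645 and 583 against 416 and 441 (0.52, SE 0.10, edgeR adjusted p = 0.174). In both, null HO lay above every other yolk sac library. CD HO reached 442 CPM for Lamc1, where the other 8 libraries reached 433, and it lay within their range for Lamb1. F3, the tissue factor that starts coagulation, lay at 16.4 and 14.3 CPM against 7.48 and 6.52 (1.13, SE 0.19, edgeR adjusted p = 0.0732), with null HO highest and CD HO lowest of all groups. The collagen IV genes Col4a1 (0.32, SE 0.12) and Col4a2 (0.41, SE 0.12), Sparc (0.54, SE 0.13) and Nid1 (0.40, SE 0.12) had differences below that of Lamc1, none called. The 6 markers that missed the unadjusted threshold were Ctsl, Vim, Krt7, Krt8, Krt18 and Krt19.

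The 3 markers fixed as defining parietal endoderm were uneven between libraries. Fst, the activin antagonist follistatin, lay at 12.5 and 9.18 CPM in null HO and 1.44 and 0.0598 in CD HO, and at 2.62 CPM or less in the other 8 libraries (3.77, SE 1.22, edgeR adjusted p = 0.753). Stra6, a retinol carrier receptor gene, lay at 3.93 and 2 CPM in null HO against 0.651 and 0.299 (2.60, SE 0.76, edgeR adjusted p = 0.638). Pth1r, the parathyroid hormone receptor gene, lay at 161 and 108 CPM in null HO and 78.2 and 103 in CD HO (0.57, SE 0.22, edgeR adjusted p = 0.93). Together they summed to 178 and 119 CPM in null HO, 80.3 and 103 in CD HO and 51.2 to 77.7 in the other libraries. In CD HO nearly all of the sum was Pth1r, and Fst and Stra6 lay there within the range of the other 8 libraries. In null HO all 3 lay above those libraries. Whether a differing amount of parietal endoderm in the samples entered the Lama1 difference was not tested.

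**Figure D3:**
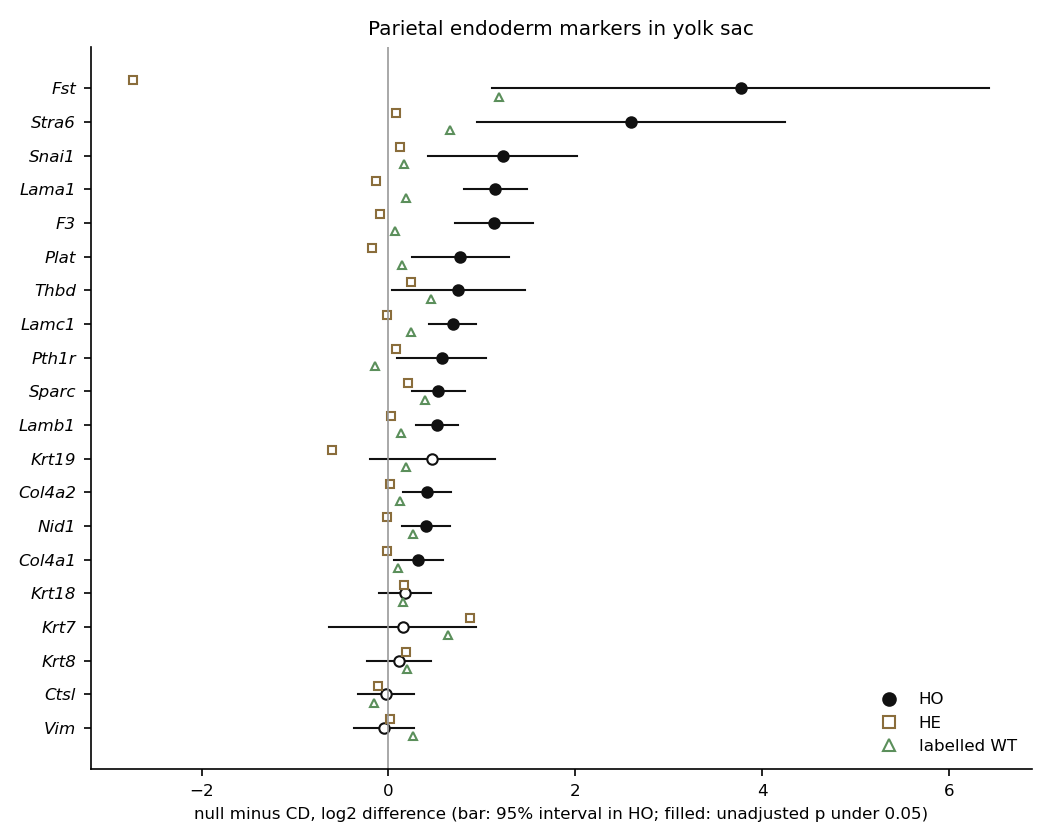
Difference between the lines, null minus CD on the log2 scale, for 20 parietal endoderm markers in yolk sac, in HO (circles with 95% intervals, filled at unadjusted p under 0.05), HE (squares) and the groups labelled WT (triangles). In HO 14 of the 20 circles are filled and lie to the right of 0, while the squares and triangles of most markers lie near 0.

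Transcription factors of the endoderm leaned upward in null HO without a call. Of 25 tested, 7 passed an unadjusted p of 0.05 upward and 0 downward (median 0.12), beside 2.52% and 2.5% of all genes. Without null HO replicate 1 the counts were 5 and 2 (all genes 1.72% and 1.58%), and without CD HO replicate 2 the upward count was 5 (all genes 3.62%). Sox17, a factor of primitive and definitive endoderm, lay at 21.1 and 16 CPM in null HO and 8 and 4.72 in CD HO (1.54, SE 0.27, edgeR adjusted p = 0.0839). Its relative Sox7 lay at 16.1 and 10.6 against 7.35 and 4.61 CPM (1.15, SE 0.27, edgeR adjusted p = 0.331), and Klf5 at 21.3 and 18.6 against 8.14 and 10.3 CPM (1.12, SE 0.25, edgeR adjusted p = 0.284). Null HO was the highest group for Sox17 and Klf5. CD HO was the lowest for Sox7. These 3 were named after their values were seen.

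Fabp3, the heart-type fatty acid-binding protein gene, was higher in null HO. It lay at 25.6 and 14 CPM in null HO and 3.72 and 3.11 in CD HO (2.53, SE 0.30, edgeR adjusted p = 0.00496), a 5.86-fold gap. In the other 8 libraries it ran from 2.06 to 7.93 CPM, so null HO alone stood out. The edgeR adjusted p was 0.0841 without CD HO replicate 2. A pseudogene copy, Fabp3-ps1, lay at 0.598 CPM or less in the homozygotes. Zcchc17, a gene overlapping Fabp3 on the other strand, lay at 25.8 and 21.3 CPM in null HO and 24.2 and 25.3 in CD HO (-0.07).

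Hs3st1, which encodes a sulfotransferase acting on heparan sulfate, lay at 8.09 and 6.05 CPM in null HO and 0.883 and 0.359 in CD HO (3.46, SE 0.47, edgeR adjusted p = 0.0168). Null HO again stood above all other libraries, which reached 2.49 CPM, and CD HO held the lowest values. The edgeR adjusted p was 0.15 without null HO replicate 1 and 0.141 without CD HO replicate 2. Trpc5os, an X-linked gene lying opposite the calcium channel gene Trpc5, lay at 10.002 and 6.21 CPM in null HO and 1.44 and 0.718 in CD HO (2.88, SE 0.41, edgeR adjusted p = 0.0238). The null libraries labelled WT were also high, at 6.06 and 5.19 CPM, against 2.59 and 1.85 in CD WT. The call was lost without null HO replicate 1 (edgeR adjusted p = 0.265) and without CD HO replicate 2 (0.192). The sources used here do not say whether strand was used in counting, so reads of Trpc5os and Trpc5 cannot be told apart.

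Cpne4 and Commd4 lie on chromosome 9, as Setd2 does. Cpne4, a calcium-dependent membrane-binding copine gene that starts 5.99 Mb from Setd2, lay at 1.45 and 2.59 CPM in null HO and 0.093 and 0.0598 in CD HO (4.58, SE 0.67, edgeR adjusted p = 0.0257). These were 79 reads against 3, a ratio of 25.2 with a counting interval of 8.32 to 125. All 6 null libraries lay above all 6 CD libraries, the CD ones reaching 1.22 CPM. The call did not pass with the replicate block (edgeR adjusted p = 0.0638) or a sex term (0.0526), nor without null HO replicate 2 (0.11), CD HO replicate 1 (0.109) or CD HO replicate 2 (0.231). Commd4, a gene of the COMM domain family, lay at 67.3 and 56.9 CPM in null HO and 32.4 and 29.4 in CD HO (1.0, SE 0.16, edgeR adjusted p = 0.0448). Leaving out any 1 of the 4 homozygous libraries moved its adjusted p to between 0.0581 and 0.583, so this call sat at the threshold. The CD heterozygotes were as low as the CD homozygotes, at 25.2 and 29.4 CPM.

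A further 9 genes had an adjusted p between the threshold and 0.1, and they are given as values, having been picked after these were seen. Apart from F3, Lamc1, Gm13456 and Sox17 they were Tpbg, Acy1, Glb1, Adora1 and Pdpn. Tpbg, a membrane glycoprotein gene of trophoblast and many embryonic cells, lay at 0.981 and 1.13 CPM in null HO and 19.2 and 13.1 in CD HO (-3.93, SE 0.62, edgeR adjusted p = 0.0507). As with the pseudogenes above, CD WT replicate 1 (2.04 CPM) lay with the null line and replicate 2 (11.2 CPM) nearer the CD heterozygotes (21 and 13.6 CPM). Acy1, the aminoacylase gene whose end lies next to the end of Rpl29, lay at 40.3 and 35.6 against 65.2 and 61.6 CPM (-0.74, SE 0.12, edgeR adjusted p = 0.0732), opposite in direction to its neighbour. Glb1, the lysosomal beta-galactosidase gene, lay at 102 and 87.9 against 46.3 and 56.6 CPM (0.88, SE 0.15, edgeR adjusted p = 0.0732). The adenosine receptor gene Adora1 lay at 6.87 and 4.21 CPM in null HO and at 0.947 CPM or less in the other 10 libraries (2.77, SE 0.48, edgeR adjusted p = 0.0805). The mucin-type glycoprotein gene Pdpn lay at 291 and 239 against 116 and 129 CPM (1.11, SE 0.20, edgeR adjusted p = 0.089).

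The groups that were not homozygous showed how much the lines differed in any case. Between the groups labelled WT, 8 genes were called (0.0451% of those tested), 1 higher in the null line (0.00563%, Ighm) and 7 lower (0.0394%; Setd2, Gm6166, Platr15, Gucy2c, Rpl34-ps1, Rpl3-ps1 and Rpl3-ps2). Ighm and the Rpl3 pseudogenes fall outside the rule for named genes and are named to complete the count. Between HE groups 4 were called (0.0225%), all lower in the null line (Gm6166, Platr15, Gucy2c and Rpl34-ps1). Gm6166, Platr15 and Setd2 were called both in HO and between the groups labelled WT, 25% of the 12 and 37.5% of the 8. Gm6166 and Platr15 were called both in HO and between HE groups, 16.7% of the 12 and 50% of the 4. Of the 12 genes called in HO, 10 had the same sign between the groups labelled WT and 10 between HE groups.

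A line difference at WT was not always kept in the homozygotes. Rpl34-ps1, a ribosomal protein pseudogene, lay at 86.5 and 52.0 CPM in CD WT and 86.7 and 63.3 in CD HE, and at 9.3 and 8.49 in CD HO, level with all 6 null libraries (6.84 to 9.66 CPM). Gucy2c, the guanylate cyclase receptor gene, ran alike, at 33.5 to 37.5 CPM in the CD libraries labelled WT or HE, 8.88 and 13 in CD HO and 7.02 to 11.4 in the null line. Both genes thus differed between the lines in WT and HE and lay close in the homozygotes.

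Asking whether the homozygous change from the libraries labelled WT differed between the lines takes the difference between the WT groups off the direct one. That test of the difference of homozygous effects called 5 genes (0.0282% of those tested), all higher in the null line, and 588 passed an unadjusted p of 0.05 (3.31%). They were Rpl29 (3.33, SE 0.28, edgeR adjusted p = 0.000905), Gm10709 (6.71, SE 0.71, edgeR adjusted p = 0.00522), Rpl34-ps1 (3.11, SE 0.35, edgeR adjusted p = 0.00721), Fabp3 (3.12, SE 0.42, edgeR adjusted p = 0.0293) and Rps27a-ps2 (2.78, SE 0.39, edgeR adjusted p = 0.0367). The test uses the null libraries labelled WT, whose Setd2 level went against that label. It also uses CD WT replicate 2, which lay within the range of the CD heterozygotes for Rpl29 and Gm8210. Fabp3 lost the call with HE as the reference (2.37, edgeR adjusted p = 0.327), without null WT replicate 1 (0.239) or 2 (0.333), CD WT replicate 1 (0.0879), null HO replicate 1 (0.106) and CD HO replicate 2 (0.225). Gm10709 lost it without CD HO replicate 2 (0.0557), and Rpl34-ps1 without CD HO replicate 2 (0.0881) and null WT replicate 1 (0.112) or 2 (0.0736). Rps27a-ps2 lost it without any 1 of 7 libraries, CD HO replicate 1 excepted, and was 0.94 with HE as the reference. Rpl29 passed under each alternative run for this test except with the copies summed, where the sum took its place and passed. Epas1 (1.08, SE 0.19, edgeR adjusted p = 0.237), Hs3st1 (3.98, SE 0.64, 0.134), Lama1 (0.95, SE 0.22, 0.912) and Setd2 (-0.55, SE 0.13, 1) did not pass it.

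**Figure D4:**
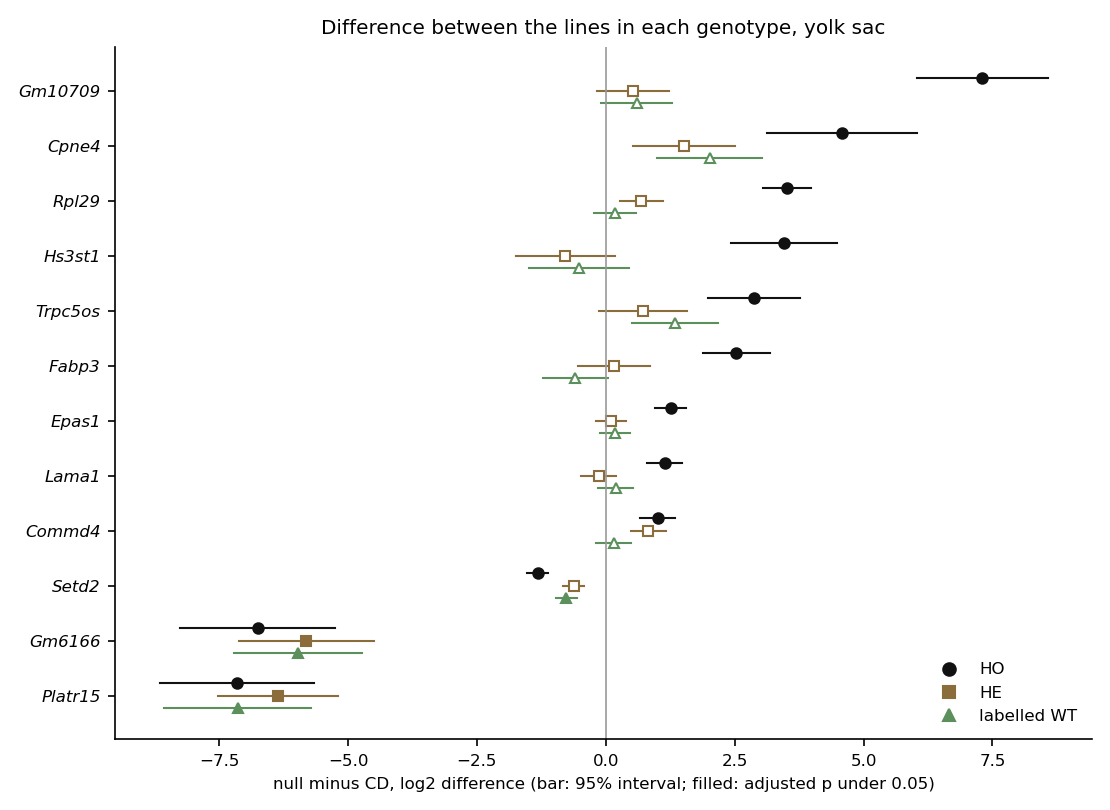
Difference between the lines, null minus CD on the log2 scale with 95% intervals, for the 12 called genes in HO (circles), HE (squares) and the groups labelled WT (triangles), filled at edgeR adjusted p under 0.05. Platr15 and Gm6166 sit near the same value in all 3 genotypes, while Gm10709, Rpl29, Hs3st1, Fabp3, Epas1 and Lama1 are filled in HO alone, with HO to the right of WT and HE.

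Beside its own line, each gene's homozygous change can be read separately, with the cautions on the libraries labelled WT in both lines. These comparisons share libraries with the direct one, so their values are only set side by side. From the libraries labelled WT to HO, Epas1 was 0.62 in the null line (edgeR adjusted p = 0.0186) and -0.46 in the CD line (edgeR adjusted p = 0.085). Fabp3 was 2.13 (edgeR adjusted p = 0.00235) and -0.996 (0.089), and Hs3st1 was 2.39 (edgeR adjusted p = 0.00858) and -1.58 (0.0937), opposite in sign in each case. Lama1 was 1.67 (edgeR adjusted p = 0.000253) and 0.71 (0.0328), upward in both lines. Rpl29 was 0.01 (edgeR adjusted p = 0.99) and -3.33 (2.18e-05), so it moved in the CD line. Cpne4 was -0.67 (edgeR adjusted p = 0.404) and -3.23 (0.0352), downward in both lines, with only 3 reads in CD HO. Its difference of homozygous effects was not called (2.57, SE 0.86). The comparison of HO with the libraries labelled WT called 1113 genes in the null line (6.27% of those tested) and 560 in the CD line (3.15%).

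Chromosome 9, which carries Setd2, held 6 of the 12 called genes (Rpl29, Setd2, Gm10709, Gm6166, Cpne4 and Commd4), although only 996 of the 17755 genes tested lie there. At an unadjusted p of 0.05, 91 of its genes passed (9.14%), against 3.11% to 6.81% on the other chromosomes. Its share was the highest without any 1 of the 4 homozygous libraries, at 6.43% to 10.95%, as well as when those libraries were fitted alone (6.99%). Without the low-count filter chromosome X stood higher (10.9% against 10.6%). Between the groups labelled WT the share on chromosome 9 was 6.02%, below that of all genes (6.62%), and between HE groups it was 7.73% (all genes 6.16%). Near Setd2 itself the share was 13.3% of 165 genes starting within 5 Mb and 7.69% of 78 genes from 5 to 10 Mb. It was 3.77% of 106 genes from 10 to 20 Mb and 16.2% of 130 genes from 20 to 40 Mb, so it did not fall steadily with distance. Within 5 Mb it was 10.3% between the groups labelled WT and 9.70% between HE groups, above the shares of all genes in those comparisons. From 20 to 40 Mb it was 6.92% between the groups labelled WT and 14.6% between HE groups. Within 10 Mb, 243 genes were tested, of which 3 were called (Setd2, Rpl29 and Cpne4) and 16 and 12 passed the unadjusted threshold upward and downward. The shares were 6.58% upward and 11.5% in either direction, beside 2.52% and 5.02% of all genes. Homozygotes of an edited line share the chromosome segment around the edit, and the effect of the allele and of that segment cannot be told apart here.

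**Figure D5:**
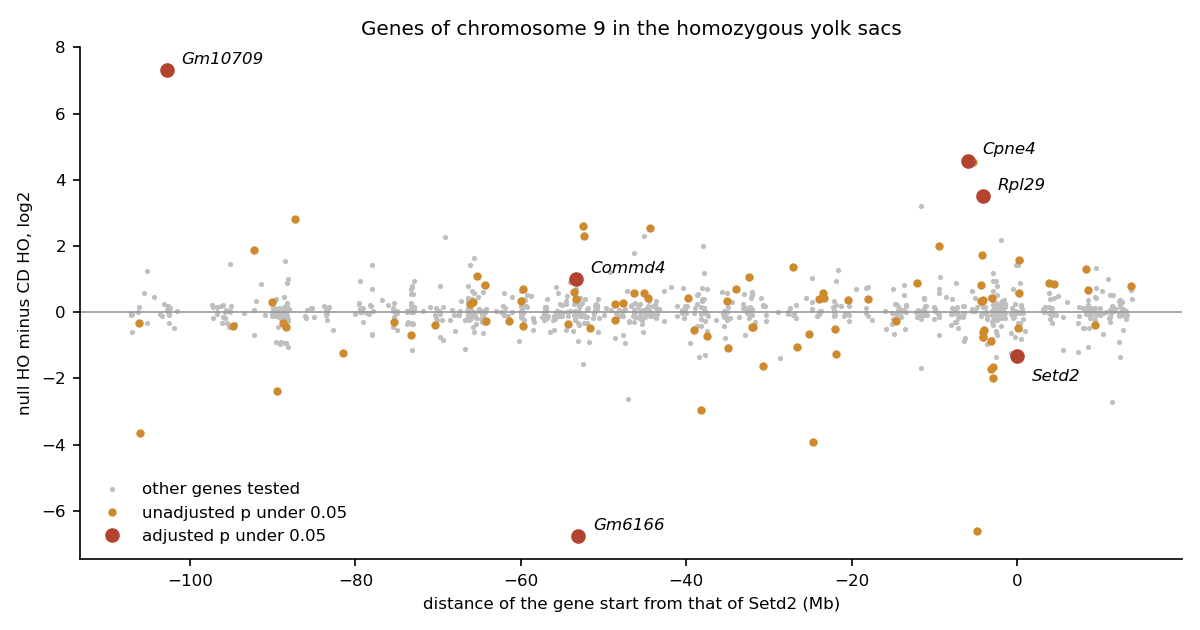
Difference between null HO and CD HO (log2) for every tested gene of chromosome 9, by the distance in Mb of its start from that of Setd2, with genes at unadjusted p under 0.05 and called genes marked. Called genes lie near Setd2 (Cpne4, Rpl29) and also over 40 Mb away (Commd4, Gm6166, Gm10709).

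Most listed gene groups showed no call between the homozygotes. For visceral endoderm transport and secretion, 0 of 49 tested genes were called, with a median of -0.05 and 3 higher and 0 lower at unadjusted p under 0.05, where 2.52% of all genes were higher and 2.5% lower. Primitive erythroid genes gave 0 of 40 (median -0.01), with 0 at the unadjusted threshold. Endothelial genes gave 0 of 52 (median -0.03, 4 upward), and extraembryonic mesoderm and stroma 0 of 36 (median 0.12, 6 upward). Between the groups labelled WT 12 of these 36 passed upward, where 3.42% of all genes did. The factors of H3K36 methylation gave 1 of 38, Setd2 itself (median 0.01). Nsd1, another H3K36 methyltransferase gene, lay at 412 and 441 CPM in null HO and 417 and 475 in CD HO. Genes that a loss of Setd2 could be asked about in other settings gave no call either: 0 of 36 p53 targets (median 0.12), 0 of 39 genes of the integrated stress response (median -0.09), 0 of 42 proliferation genes (median -0.03, 4 downward at unadjusted p) and 0 of 376 Zfp genes (median 0.01). Of 22 laminin and basement membrane genes, Lama1 was called and 7 passed the unadjusted threshold upward (median 0.04). Between the groups labelled WT 5 of these 22 passed upward (median 0.19). For the difference of homozygous changes 3 passed upward and 3 downward (median -0.07), where 258 and 330 of all 17755 genes did. Of 87 ribosomal protein genes, only Rpl29 was called (median 0.07). Mitochondrially encoded transcripts gave 0 of 15 (median 0.13). The remaining lists, from imprinted and germline genes to Hox genes, interferon response, cholesterol synthesis, leukocytes, trophoblast and sex-linked genes, had 0 calls each. Half-widths of the unadjusted 95% interval had medians of 0.24 for proliferation genes and 0.89 for erythroid genes. A call needs an adjusted p under 0.05, so shifts of that size, and larger ones, could go uncalled in a single member.

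The same contrast in whole embryos shared a part of the list. There, 18 of 19215 genes were called (0.0937%), and Rpl29, Setd2 and Gm10709 were called in both tissues in the same direction, 25% of the yolk sac calls and 16.7% of the embryo calls. Rpl29 lay at 362 and 303 CPM in null HO embryos and 30 and 26 in CD HO embryos (3.57, SE 0.09, edgeR adjusted p = 5.72e-10). It was 166 and 156 CPM in CD HE embryos and 309 and 301 in CD WT embryos, so the CD heterozygotes lay between the other genotypes of their line with no overlap. Gm8210, not called in yolk sac, was called in embryos (-7.62, SE 0.35, edgeR adjusted p = 3.51e-07). Gm13456 (-1.60, edgeR adjusted p = 5.77e-06), Gm11868 (-6.71, 0.000127), Gm11942 (-2.77, 0.000227) and Cyb5r4 (0.67, 0.00357) were called there too. Gm13841 was not (-0.85, edgeR adjusted p = 0.129). In the embryos labelled WT, Gm11868 already lay at 7.83 and 8.16 CPM in the CD line, against 0.193 and 0.076 in the null line. Epas1 lay at 34 and 40.3 CPM against 37.7 and 40.5 (-0.07, SE 0.15), Lama1 at 189.7 and 165 against 181 and 184 (-0.04, SE 0.08) and Fabp3 at 3.2 and 3.1 against 3.56 and 3.17 (-0.10, SE 0.18), with no call. Of the 11 yolk sac calls tested in embryos, 5 had the same sign. Whether a difference was larger in yolk sac than in embryos was not tested, as the tissues were fitted separately.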

How the data were processed

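The authors deposited raw read counts per gene for the 12 yolk sac and 12 embryo libraries, with FPKM values beside them. The deposited FPKM were compared with the counts (0 values off by more than a relative 0.001) and were not tested. Per the submitters' processing notes the tools were fastp 0.22.0, HISAT2 2.2.1, featureCounts 2.0.1 and DESeq2 1.32.0 with the mm10 build. For their order, the annotation release, multiply mapped reads and strand: not given in the sources used here. All 12 yolk sac count columns were fitted together with edgeR 4.0.16 (R 4.3.3, limma 3.58.1; TMM scaling, quasi-likelihood test, Benjamini-Hochberg adjustment over all 17755 genes kept by a count minimum of 10 and a total minimum of 15), 1 mean per line and genotype, on 6 residual degrees of freedom. The tests were null minus CD in HO, HE and the groups labelled WT, and the difference of the homozygous changes. Embryos were fitted separately (19215 genes). The fit was tested on simulated data. DESeq2 1.42.0, other scalings, no filter, a sex term, a replicate block, the homozygous libraries alone and leaving out each library were alternatives.

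The rule for named genes took Setd2, then up to 12 called genes each way by smallest p with a log2 difference of at least 1, a mean of at least 1 CPM and no overlap of the homozygotes, those also called in the WT groups or in the difference of homozygous changes, called members of the lists and called genes within 10 Mb of Setd2. It passed over predicted genes and pseudogenes, and members of any count of 5 or fewer may be named. Genes outside it are said to have been picked after their values were seen. The genes compared and the lists were chosen with earlier results of these data known. Copies were found with blastn 2.17.0 in GENCODE M21 transcripts (95% identity or more over at least 300 bases), which also gave the coordinates and the sequences shown. Ratios of summed counts carry exact 95% intervals for counting error only. Depth was 16400137 to 22113787 counts per yolk sac library.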

Additional observations from a re-analysis of the deposited data

Results flagged for a closer look

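A difference between the lines in the homozygous change from the libraries labelled WT passed the edgeR test of that difference for 5 genes. It was 3.33 on the log2 scale for Rpl29, 6.71 for Gm10709, 3.12 for Fabp3, 3.11 for Rpl34-ps1 and 2.78 for Rps27a-ps2. Rpl29, Gm10709 and Rpl34-ps1 were low in CD HO and steady in the null line. Fabp3 was high in null HO. Rps27a-ps2 was low in the null libraries labelled WT (2.22 and 2.29 CPM), against 7.29 and 7.99 in null HO, with 5.88 and 6.13 CPM in CD WT and 3.72 and 2.15 in CD HO.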

How the results depend on the processing

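The 12 homozygous calls became 55 with DESeq2, 221 without the low-count filter, 23 with a sex term, 19 with the homozygous libraries alone and 8 to 42 without single libraries (8 without null HO replicate 1, 42 without CD HO replicate 1). Of the 12, Epas1, Gm10709, Gm6166, Platr15, Rpl29 and Setd2 passed in every alternative in which they were tested, and 0 reversed. The 8 calls between the groups labelled WT became 27 with DESeq2, 294 without the filter and 1 to 12 without single libraries. The 4 between HE groups became 39, 355 and 2 to 46, and the 5 for the difference of homozygous changes 13, 122 and 1 to 28, with 3 when HE was the reference. The causes were not tested. Summing Rpl29 with its copies, added after seeing the data, gave 11 homozygous calls.

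Same-numbered libraries showed little sign of pairing: over 15 pairs of groups their deviations correlated from -0.122 to 0.175. These values are taken over all genes, so they cannot exclude a shared litter or preparation that acts on part of them. With a replicate block, 11, 7, 5 and 6 genes were called in the order above, and Cpne4 lost its call (4.56, edgeR adjusted p = 0.0638).

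With 2 libraries per group, 1 library can make or end a call. The homozygotes differ in sex, with 1 female in null HO, and the null libraries labelled WT are low in Setd2. CD WT replicate 2 lay within the range of the CD heterozygotes for Rpl29 and Gm8210.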
